A study of Homo sapiens with 2 samples.

Results

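Eph receptors and ephrins were examined in A549, a long-established line of human lung adenocarcinoma cells, after 4 h of stretch and after 4 h of static culture. The genes were taken by symbol from a list of 10 (EPHA1, EPHA2, EPHA4, EPHB2, EPHB3, EPHB4, EFNA1, EFNA4, EFNB1 and EFNB2). The platform's annotation table named 9 of them, each by 1 probe set, among 14884 named genes in all. EPHB2 is unnamed here and was not analysed. A gene counts as named where a probe set carries its symbol and no other. Total RNA was labelled with biotin and read on 2 expression arrays of 53617 probe sets, 1 array per culture condition, so no value below has a replicate and no test between the conditions exists. The stretch sample's title spells the line A594, whereas its source name gives A549. The amplitude, rate and device of the stretch, and how many cultures fed each array, are not given in the sources used here.

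Eph receptors are receptor tyrosine kinases of the cell surface, and ephrins are the membrane-bound ligands they meet on neighbouring cells. Class A ephrins are held by a lipid anchor and class B ephrins by a transmembrane segment, so contact can signal forward into the receptor cell and in reverse into the ligand cell. In epithelia these pairs are known for contact repulsion, sorting of cells at borders and control of cell spreading, and EPHA2 is a frequently studied receptor in lung and other carcinomas.

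Signals are log2 RMA values, and differences are stretch minus static on the log2 scale. The arrays differed in more than these genes. Over the 10981 named genes past a level filter (the higher of both values at least 2.52, the median of all values), the median difference was 0.20, with an interquartile range from -0.17 to 0.65. The 95th percentile of 19 genes of unrelated tissues, 4.25, was used as an upper bound of background. Their differences had a robust SD of 0.58, with 4 of the 19 past 1.5-fold and 0 past 2-fold. Signals of different probe sets are not set against each other. Of the epithelial markers, KRT7, KRT8, KRT18, EPCAM and CLDN1 were above the background bound on both arrays. KRT19, the surfactant genes SFTPB and SFTPC and the lung factor NKX2-1 were within the background range on both. Summed over the 9 named epithelial and A549 markers of 13 listed, log2 signals were 48.7 on the stretch array and 44.6 on the static array. For 3 named fibroblast markers of 7 the sums were 6.91 on the stretch array and 7.55 on the static array, for 4 named endothelial markers of 6 they were 9.80 on the stretch array and 9.89 on the static array, and every one of these 7 genes was within the background range. Of 4 named immune markers of 7, CD68 and CD14 were above the bound on both arrays, and MPO and LYZ were within it. MPO is also among the 19 genes that set the bound. The sums of the immune markers were 18.3 on the stretch array and 17.7 on the static array. The part of these markers in the results below was not tested. In bulk RNA a smaller number of cells of one kind and less RNA per cell cannot be told apart.

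EPHA2 was the receptor that differed most, and EFNB1 was the ligand that differed most among the listed genes. Both were more than 2-fold higher on the stretch array, and 0 of the 9 genes were lower by 1.5-fold. At 1.5-fold 2 of 9 were higher, where 27.7% of all named genes past the level filter were higher and 8.9% lower. At 2-fold the same 2 were higher, against 12.3% higher and 2.5% lower over all named genes. The members' count is near the background at 1.5-fold, and with 9 genes it gives no ground to set the family apart at 2-fold. Every named member passed the level filter, EFNB2 through its stretch value alone, so that its direction was in part fixed by the filter. The median difference of the 9 was 0.06.

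**Figure D1:**
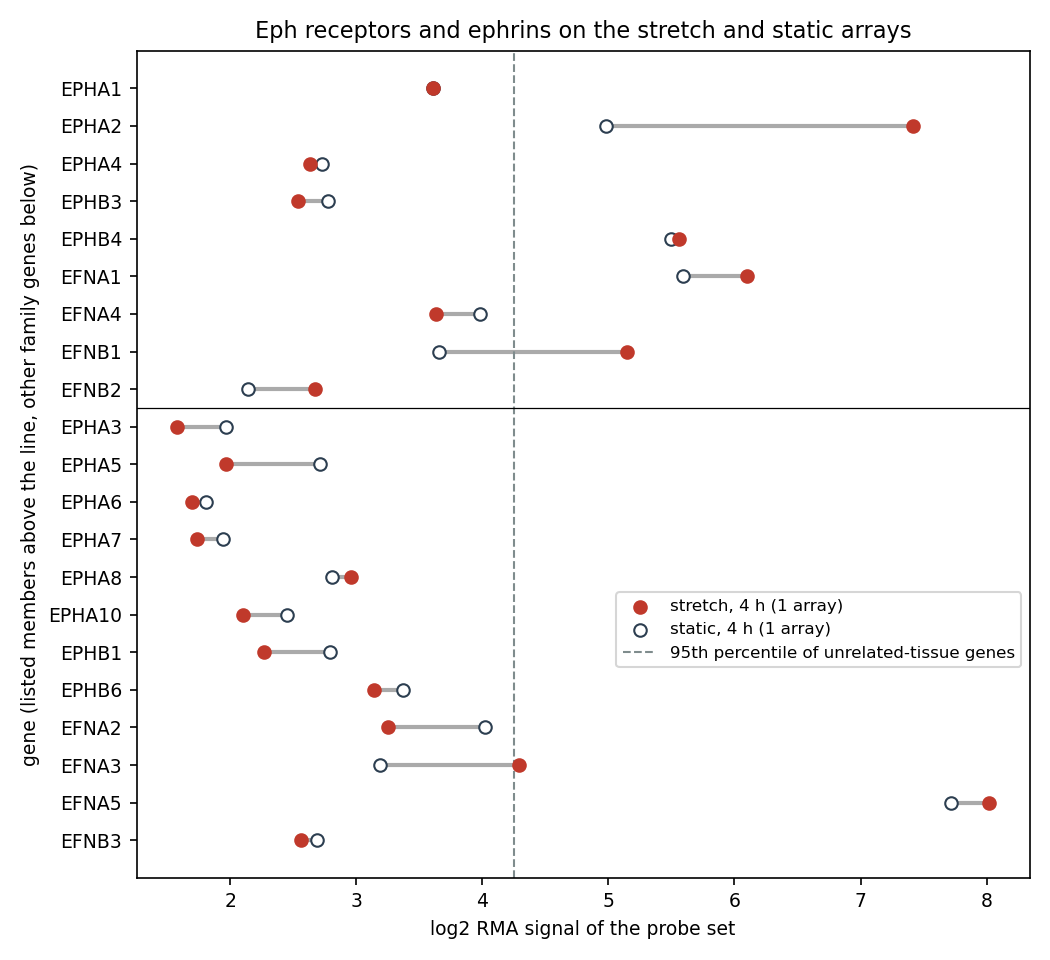
Log2 RMA signal (x axis) of each named Eph receptor and ephrin gene (y axis) on the stretch array (filled points) and the static array (open points), with 1 array each. The dashed line is the upper bound of background at 4.25. EPHA2 and EFNB1 have the longest lines, both with the stretch point on the right, and 15 of the 21 genes lie left of the dashed line on both arrays.

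Promoter sequences of 3 members are shown because EPHA2 and EFNB1 were the members past 2-fold, while EPHB4 was above background on both arrays with almost the same signal. Each is the 250 bases before the annotated gene start, from RefSeq (GRCh38.p14), printed 5′ to 3′ on the gene's strand. Capitals mark any of 4 motifs searched on both strands: the TEAD element GGAATG or CATTCC, the AP-1 element TGANTCA, the SRF CArG box and the EGR1 element GCGTGGGCG or CGCCCACGC. The windows are chr1:16156070-16156319, minus strand, for EPHA2, chrX:68828771-68829020, plus strand, for EFNB1, and chr7:100827524-100827773, minus strand, for EPHB4.
EPHA2: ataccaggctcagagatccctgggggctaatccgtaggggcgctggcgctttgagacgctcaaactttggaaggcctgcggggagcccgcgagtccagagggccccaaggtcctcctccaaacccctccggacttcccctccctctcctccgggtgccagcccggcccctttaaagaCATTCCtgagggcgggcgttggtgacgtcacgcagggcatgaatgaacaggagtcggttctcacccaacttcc
EFNB1: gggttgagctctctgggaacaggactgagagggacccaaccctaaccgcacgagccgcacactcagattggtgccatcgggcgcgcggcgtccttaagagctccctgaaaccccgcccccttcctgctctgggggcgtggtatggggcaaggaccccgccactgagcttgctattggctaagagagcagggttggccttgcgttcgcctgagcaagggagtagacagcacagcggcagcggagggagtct
EPHB4: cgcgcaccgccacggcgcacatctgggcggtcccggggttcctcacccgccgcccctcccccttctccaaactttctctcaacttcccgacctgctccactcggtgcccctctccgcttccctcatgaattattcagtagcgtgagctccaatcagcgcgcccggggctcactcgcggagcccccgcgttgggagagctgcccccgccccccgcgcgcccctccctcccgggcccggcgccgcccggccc
The EPHA2 window holds CATTCC, the TEAD element read on the other strand, starting 73 bases before the gene start. No motif searched was found in the windows of the other 9 listed genes, EPHB2 included, nor in those of the other family genes in the table, which holds 20 of the 22. The TEAD element occurs in 11.9% of all 35116 promoter windows of this length, the AP-1 element in 6.57%, the CArG box in 1.16% and the EGR1 element in 0.720%. A match describes these letters and is not a binding site. The share of G and C was 63.2% for EPHA2, 63.6% for EFNB1 and 72.8% for EPHB4, where the median of all windows is 58.0%. Of all windows, 37.7%, 36.6% and 14.7% had at least that share, in the same order.

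EPHA2, the class A receptor known for its role in carcinoma cell migration, had a signal of 7.42 on the stretch array, against 4.98 on the static array. Both values were above the background bound. The difference of 2.44 corresponds to 5.43-fold and ranked 46th from the highest among the 10981 genes. Signals of like size give a scale for it. Among 1486 other named genes with a mean signal within 0.5 of that of EPHA2, the middle 95% of differences ran from -0.73 to 1.93 around a median of 0.45, and 0.875% were at least as high as that of EPHA2. The gene ARHGEF19, its neighbour in the RefSeq gene order, had 3.77 on the stretch array and 3.51 on the static array, both within the background range. An antisense gene that overlaps EPHA2 is unnamed here, and its signal cannot be told apart from that of EPHA2 unless the probes are strand-specific, which was not stated in the sources used here.

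The other class A receptors of the list showed no difference of that size. EPHA1, the first Eph receptor to be identified, read 3.61 on the stretch array and 3.61 on the static array. EPHA4, a receptor that can bind ephrins of both classes, had 2.63 on the stretch array and 2.73 on the static array. Both receptors lay within the background range on each array, so that a difference in their RNA was not measurable here in either direction. EPHA1-AS1, the antisense RNA that overlaps EPHA1, had 1.59 on the stretch array and 1.82 on the static array. ZYX, encoding the actin-associated protein zyxin, adjoins EPHA1 in the gene order and had 5.96 on the stretch array, against 4.65 on the static array.

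Of the listed class B receptors, only EPHB4 was measured above background, and it did not differ by 1.5-fold. EPHB4, the main receptor for ephrin B2 and best known from blood vessels, had a signal of 5.56 on the stretch array and 5.50 on the static array, both above background. Its difference of 0.06 lay below the median of 0.46 of the 1854 genes of like level, of which 24.2% were as low or lower. EPHB4 was therefore slightly higher as deposited and lower relative to genes of its own level, at -0.29 after a loess on level. EPHB3, a receptor known from sorting of intestinal epithelium, had 2.54 on the stretch array and 2.78 on the static array. Both values were within the background range, so that a difference in its RNA was not measurable here.

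Among class A ligands EFNA1 was measured above background. EFNA1, first cloned as a transcript induced by tumour necrosis factor in endothelial cells and the best known ligand of EPHA2, had 6.10 on the stretch array, against 5.59 on the static array. Its difference of 0.51 was under 1.5-fold and close to the median of 0.43 for the 1688 genes of like level. EFNA4 had 3.63 on the stretch array and 3.98 on the static array, a difference of -0.35, with both values within the background range. The receptor EPHA2 and its ligand EFNA1 thus had differences of unequal size, 2.44 and 0.51. Whether that gap exceeds the spread between cultures was not tested, since no replicate exists.

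Of the listed class B ligands, EFNB1 was past 2-fold and EFNB2 was not measured above background. EFNB1, a transmembrane ephrin that signals in both directions, had 5.15 on the stretch array, against 3.66 on the static array. The difference of 1.49, or 2.81-fold, ranked 441st from the highest of 10981. Its static value lay within the background range, where RMA compresses changes. Among 2163 genes of like level the middle 95% of differences ran from -1.0 to 1.78, so EFNB1 lay inside that range, with 5.69% of genes at least as high. EFNB2, the ligand that marks arterial endothelium, had 2.67 on the stretch array, against 2.14 on the static array. Both values were within the background range, and the difference of 0.53 was under 1.5-fold.

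**Figure D2:**
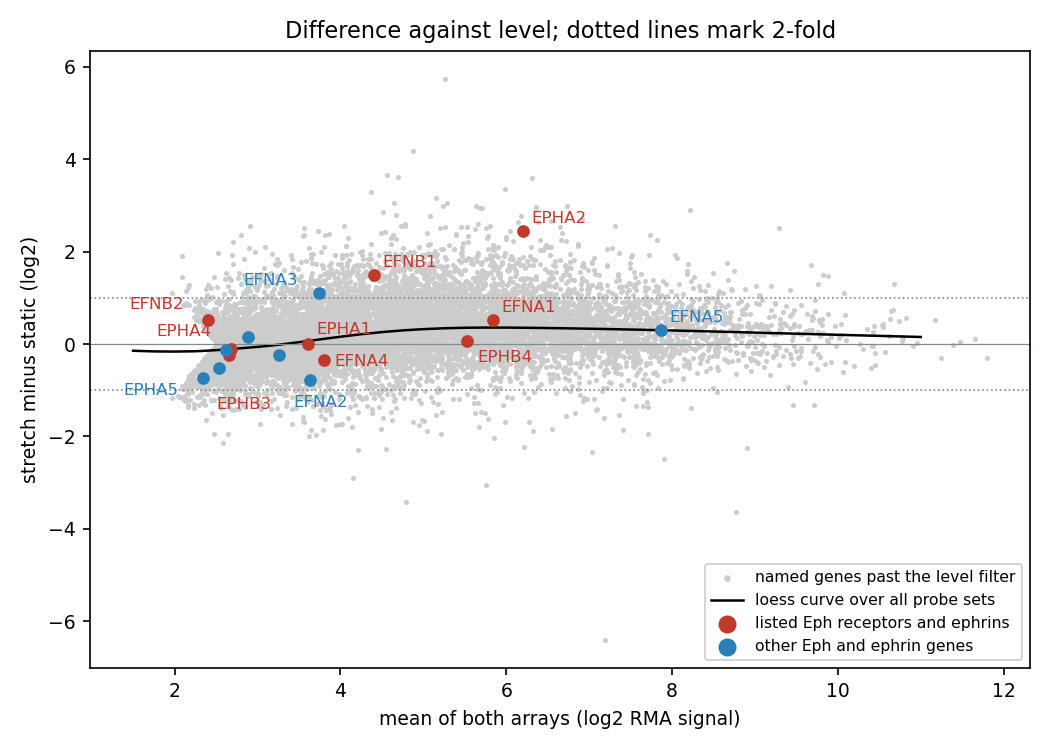
Difference, stretch minus static in log2 (y axis), against the mean of both arrays in log2 RMA signal (x axis) for 10981 named genes past the level filter (grey), listed Eph receptors and ephrins (red) and other family genes (blue). The black line is a loess curve over all probe sets and the dotted lines mark 2-fold. EPHA2 at 2.44 stands at the upper edge of the genes of its level, whereas EFNB1 at 1.49 lies within the grey points of its level.

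By role, the 4 listed ligands had a median difference of 0.52 and the 5 named receptors one of 0.00. Class B members had a median of 0.30 over 4 genes and class A members one of 0.00 over 5. The ligand median was 0.36 after quantile normalization and 0.41 after loess, and the receptor median was -0.13 and -0.07 in the same order. Centring moves every gene alike and leaves the gap between them as it was. The order turned round with the stricter level filters, which left 4 genes: EPHA2 and EPHB4 then had a median of 1.25, and EFNA1 and EFNB1 one of 1.0. EFNB1 passed those filters through its stretch value alone, so its direction was in part fixed by them. These data do not set ligands apart from receptors.

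The remaining family genes were mostly within the background range. Of the 12 family genes outside the list, all were named and 10 were within the background range on both arrays. EFNA5, a class A ligand, had 8.02 on the stretch array and 7.72 on the static array. That difference of 0.30 was near the median of 0.28 of genes of like level and turned to -0.04 with both arrays centred on reference genes. EFNA3 had 4.29 on the stretch array, just above the background bound, against 3.19 on the static array. The static value lay within the background range, so the difference of 1.10 is from a compressed signal, and 7.96% of 2361 genes of like level were at least as high.

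At the low end were EFNA2, with 3.25 on the stretch array and 4.02 on the static array (-0.77), and EPHA5, with 1.97 on the stretch array and 2.71 on the static array (-0.74). Both were within the background range on each array, as was EPHA5-AS1, an antisense RNA that overlaps EPHA5, with 2.11 on the stretch array and 3.16 on the static array. EPHB1 (-0.52), EPHA3 (-0.39), EPHA10 (-0.35), EPHB6 (-0.23), EPHA7 (-0.20), EFNB3 (-0.13) and EPHA6 (-0.11) had negative differences and EPHA8 a positive one (0.15), all from signals within the background range. EPHB6 and EPHA10 encode receptors without kinase activity. Over the 17 family genes past the level filter, 3 were higher and 2 lower by 1.5-fold, beside 27.7% higher and 8.9% lower over all named genes, and the median difference was 0.00. EPHA5 and EPHB1 passed the filter through their static values alone, so their directions were in part fixed by the filter.

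The genes EFNA4, EFNA3 and EFNA1 lie side by side on chromosome 1, with ADAM15 on the far side of EFNA4. Their differences were unequal, at -0.35 for EFNA4, 1.10 for EFNA3 and 0.51 for EFNA1, while ADAM15, encoding a membrane protease, had 5.37 on the stretch array and 5.12 on the static array (0.25). RefSeq lists read-through genes that join EFNA4 to EFNA3 and ADAM15 to EFNA4, and an antisense gene, DCST1-AS1, that overlaps EFNA4 and had 3.68 on the stretch array and 4.19 on the static array. Signal of overlapping transcripts can enter the EFNA4 and EFNA3 probe sets, and the part of such signal was not tested.

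Genes of forward signalling, meaning adaptors, kinases and GTPase regulators that act inside the receptor cell, held 2 of the larger differences, those of ABL2 and SHC1. Of 27 named genes (45 listed), 26 passed the level filter, 9 were higher and 2 lower by 1.5-fold, where 27.7% of all named genes were higher and 8.9% lower. At 2-fold 5 were higher and 1 lower, where 12.3% of all named genes were higher and 2.5% lower. The list's median of 0.39 compares with 0.20 over all named genes. Whether the list as a whole is set apart was not tested. ABL2, a kinase that binds actin, had 6.72 on the stretch array, against 4.19 on the static array, a difference of 2.53. Its static value lay within the background range. The second, dimmer probe set of ABL2 differed by 0.67, with both values within that range. SHC1, an adaptor that links receptors to RAS, had 9.0 on the stretch array, against 7.08 on the static array, a difference of 1.92. GRB10, an adaptor of the same family as GRB14, differed by 1.35 with both values within the background range. GRB14 was the lowest of the list, with 6.98 on the stretch array and 8.31 on the static array, a difference of -1.33. Chosen after their values were seen, the adaptor GRB2 differed by 1.05, the exchange factor NGEF, a direct partner of EphA receptors, by 1.04 within the background range, and SRC by 0.92. RHOA itself differed by 0.25. The list's median was 0.11 after quantile normalization and 0.17 after loess, against -0.01 and 0.04 over all named genes.

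Reverse signalling and cleavage genes stood close to all genes. Of 17 named genes (26 listed), 15 passed the filter, and 4 were higher and 0 lower by 1.5-fold. Over all named genes 27.7% were higher and 8.9% lower. The list's median was 0.13, against 0.20 over all named genes. After centring on reference genes it was -0.21, against -0.14. The 4 with the largest differences were PSEN2 (0.97), NCSTN (0.87), ADAM12 (0.84) and APH1A (0.62). PSEN2, NCSTN and APH1A encode subunits of gamma-secretase, the complex that cuts the membrane stub of ephrin B after shedding. A further subunit, PSENEN, chosen after its values were seen, had 9.84 on the stretch array and 9.53 on the static array (0.31). PSEN2 was within the background range on both arrays. ADAM10, the protease best known for shedding ephrins, was chosen after its values were seen and had 8.48 on the stretch array and 8.47 on the static array.

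Among receptor tyrosine kinases as a whole, EPHA2 stood near the top. Of 35 named kinases outside the Eph family (44 listed), 27 passed the filter, and 9 were higher and 1 lower by 1.5-fold. Over all named genes 27.7% were higher and 8.9% lower. The kinases had a median of 0.27, against 0.20 over all named genes. After centring on reference genes it was -0.07, against -0.14. In the 36 receptor tyrosine kinases past the filter, Eph receptors included, EPHA2 ranked second from the highest. Only 10 of the other kinases and 2 Eph receptors, EPHA2 and EPHB4, were above the background bound on either array. For the rest a difference was not measurable here. AXL, a receptor tyrosine kinase of the TAM family, was first with 8.59 on the stretch array, against 6.03 on the static array, a difference of 2.56. ROR1 (1.5), FGFR1 (1.35) and IGF1R (1.07) followed EPHA2. The static value of FGFR1 lay just within the background range. The difference of 0.12 between AXL and EPHA2 is far under the robust SD of 0.58 seen in genes of unrelated tissues, so these data do not settle which of them differed more.

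Other guidance families did not show a difference of the size seen for EPHA2. There were 25 named genes for plexins, neuropilins, netrins, netrin receptors and slits (49 listed, with the semaphorins and ROBO receptors unnamed here). Of these, 21 passed the filter, and 5 were higher and 0 lower by 1.5-fold. Over all named genes 27.7% were higher and 8.9% lower. The list's median was 0.27, against 0.20 over all named genes. After centring on reference genes it was -0.07, against -0.14. The 4 with the largest differences were SLIT3 (1.03), PLXNA2 (0.98), PLXNB2 (0.94) and NRP2 (0.93), a slit ligand, a pair of plexin receptors and a neuropilin coreceptor. The static value of PLXNA2 lay within the background range.

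**Figure D3:**
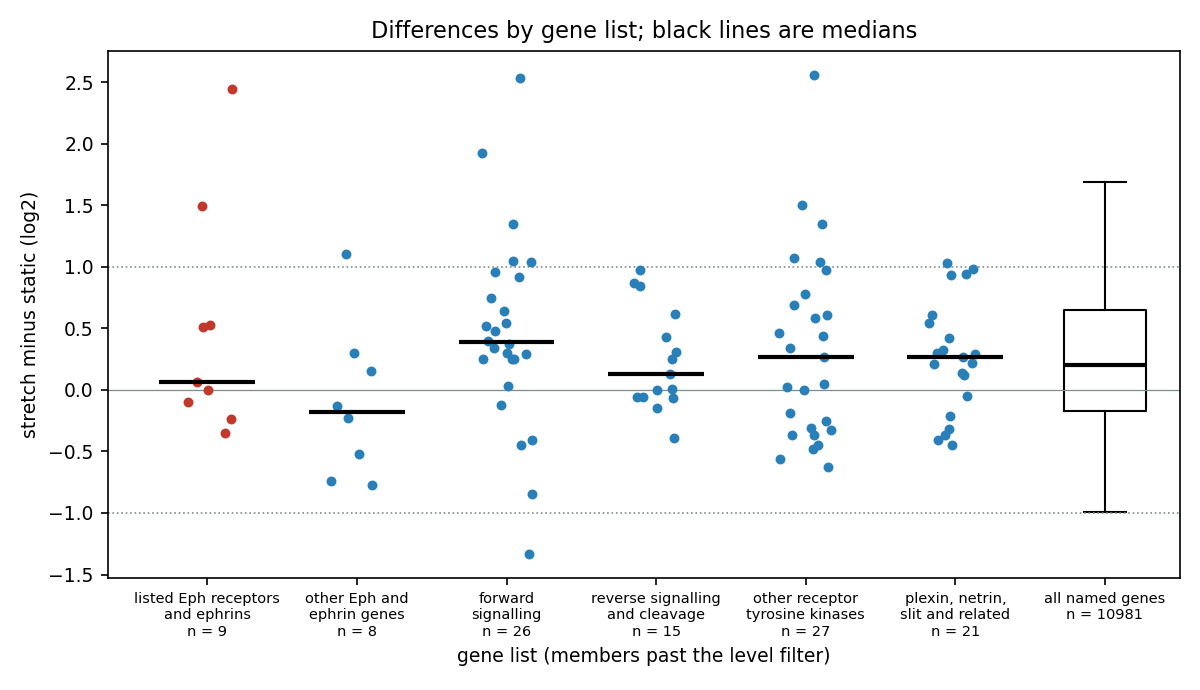
Difference, stretch minus static in log2 (y axis), for genes past the level filter in each list (x axis). Points are genes, black lines are medians, and the box of all 10981 named genes shows the quartiles with whiskers around the middle 95%. The red points of the listed members have their median at 0.06, with EPHA2 and EFNB1 above the 2-fold line.

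The scaling between the arrays moved most small differences. EPHA2 lay between 2.08 and 2.54 and EFNB1 between 1.15 and 1.59 under 4 other scalings, so both stayed past 2-fold. EFNA1 stood at 0.61 after centring on medians, 0.08 after quantile normalization, 0.15 after loess and 0.17 after centring on reference genes. EPHB4 had 0.16 after centring on medians and -0.38 after quantile normalization. EFNB2 was at or above 1.5-fold after centring on medians (0.63), quantile normalization (0.63) and loess (0.67), but had 0.19 with reference genes. The 6 named reference genes of 14 listed were themselves spread from -0.22 (B2M) to 1.72 (PPIA). Their median of 0.34, the shift used, is therefore loosely set. EFNA4 was negative throughout, from -0.69 with reference genes to -0.25 after centring on medians.

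**Figure D4:**
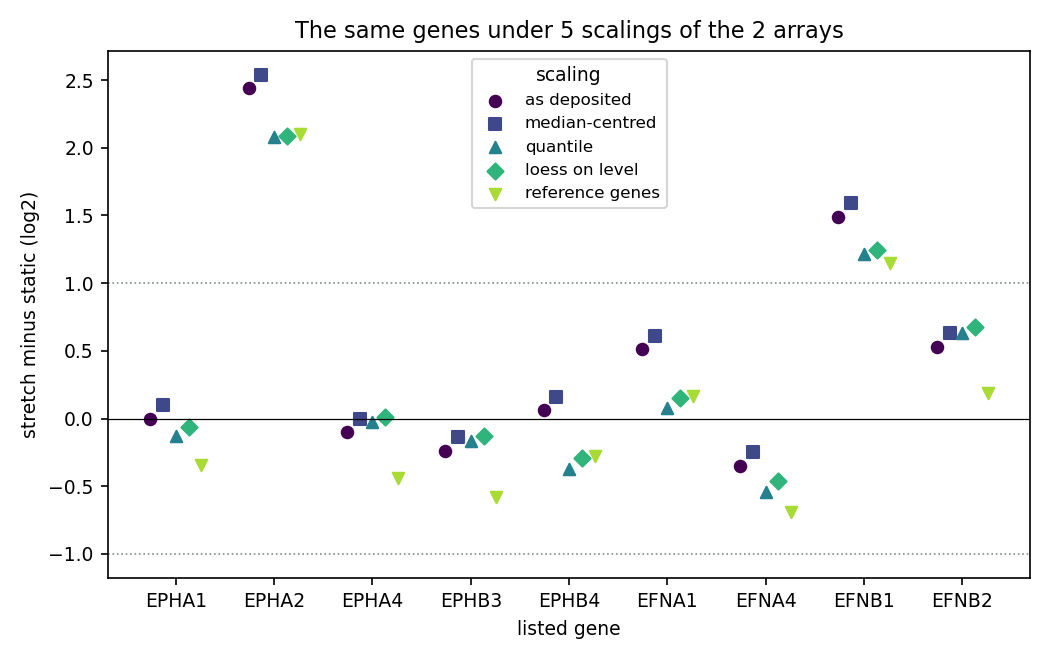
Difference, stretch minus static in log2 (y axis), of the 9 named members (x axis) as deposited and under 4 other scalings of the 2 arrays (symbols). EPHA2 and EFNB1 stay above the dotted line at 2-fold in all 5, whereas the points of EPHA1, EPHA4 and EPHB4 fall on both sides of 0.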

How the data were processed

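The deposited table holds log2 expression values of 2 arrays which, per the submitters' processing notes, are RMA values. The program, its version and the chip definition are not given in the sources used here. Both columns differ in distribution (medians 2.47 for stretch and 2.57 for static), so how the authors scaled the arrays to each other is unknown. Values ranged from 0.60 to 12.6 on the stretch array and from 0.61 to 12.7 on the static array. RMA gives no detection calls, and the number of arrays limits the precision.

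Groups came from the source names. The platform annotation gave 1 symbol to 16098 probe sets, and symbols were checked by gene identifier against RefSeq (GRCh38.p14). The other 37519 probe sets, with no symbol or with several, were left out of the gene results. The probe set with the highest mean stood for a gene (779 genes had several). No test was possible with 1 array per condition. Sizes were counted at 1.5-fold and 2-fold. Alternatives were 4 scalings (centring on medians, quantile, loess with span 0.3, centring on 6 named reference genes), other level filters and probe set means. Median differences of all named genes past the filter were 0.30, -0.01, 0.04 and -0.14 under these scalings in that order, against 0.20 as deposited.

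Members and lists were chosen with earlier results of these data known. Named genes are all members, all other named family genes and up to 4 genes per list with the largest differences. Likeness of pattern was not computed from 2 arrays. Counting and scaling steps were tested on simulated data. Python 3.11.15, numpy 2.4.6, pandas 2.3.3 and statsmodels 0.14.6 were used.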

Additional observations from a re-analysis of the deposited data

How the results depend on the processing

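The count of members at least 2-fold higher was 2 under all 8 alternatives tried. The count at least 1.5-fold higher was 2 as deposited and 4 with the arrays centred on their medians, which adds 0.10 to every difference. The count at least 1.5-fold lower was 0 as deposited and 1 with the arrays centred on reference genes, which takes 0.34 from every difference. With a stricter level filter (the upper quartile, 4.24, or the background bound, 4.25), the same 4 members were left. Their median difference was 1.0 in both, against 0.06 for all 9. EFNB1 passed these 2 nearly equal filters through its stretch value alone, so its direction was in part fixed by them. The median of the receptors under these 2 filters was 1.25, against 0.00. The median of the ligands was 1.0 under them, so the order of both turned round. Of 78 recomputed values that could change, 72 stayed within the spread used here (a robust SD of 0.58 in unrelated-tissue genes, or 1.5 times a count). Averaging probe sets (1 per member) and dropping the level filter (all 9 passed) could change none of the other 23. Centring on medians or on reference genes moves each difference and each median by 0.10 or 0.34, both under 0.58. Differences and medians under these 2 scalings therefore could not leave that spread, and the 72 include them. No replicate could be left out, and no paired analysis was possible because each condition has 1 array. Signals below 4.25 limit what can be said of 5 of the 9 members on both arrays, and of EFNB1 on the static array.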
